A study of Rattus norvegicus with 12 samples.

Results

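Cytochrome P450 enzymes are haem proteins that use molecular oxygen and electrons from a reductase to add an oxygen atom to their substrate. Different families act on drugs and other foreign compounds, on fatty acids and their eicosanoid products, on steroid hormones, on cholesterol and bile acids, and on vitamin D and retinoic acid. Most members are known for their high levels in the liver or in steroid-producing glands. In fat, P450 enzymes are known above all for handling retinoic acid, fatty acids, oxysterols and oestrogens.

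The genes described here are the P450 genes (symbols beginning with Cyp and a digit) with a probe set of their own on the array. Of 69 such genes, the rule left out Cyp2e1 and Cyp51, and the other 67 of the 14506 genes tested are the members. Every member had 1 probe set, and no P450 probe set was shared with another gene. All 67 matched a RefSeq gene by Entrez number, and 1 of them, Cyp2s1-ps1, is annotated as a transcribed pseudogene.

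The samples were epididymal white adipose tissue, a visceral fat pad, from 12 male Sprague-Dawley rats. There were 4 fed rats, 4 rats fasted to phase 2 and 4 rats fasted to phase 3, numbered 1 to 4 within each group as in the titles. During prolonged fasting, phase 2 is the period in which fat is the chief fuel and protein is spared, and phase 3 the later one in which protein loss speeds up. No source used here gives the rats' ages or the length of the fasts. Each rat had 1 Affymetrix Rat Gene 1.0 ST array, so the error given is that between rats. Whole fat pads were measured: fewer cells of a type and less RNA per cell cannot be told apart.

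Levels below are log2 values from RMA, a method that corrects background and equalises the arrays, and 1 log2 unit is a doubling. A change is the difference of 2 group means from 1 limma fit of all 12 arrays, given with its standard error (SE). P-values are from limma, adjusted by Benjamini-Hochberg over all 14506 genes, and a change counts as called where the adjusted p is below 0.05. The number of arrays limits the precision. The median level of the genes tested was 6.975 in the fed arrays, 6.91 in phase 2 and 6.82 in phase 3, that is, against fed arrays it fell by 0.065 and by 0.155. Where that shift matters to a result, the value with each array centred on its own median is given too.

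The extraction protocol names liver, unlike the titles, the tissue labels and the other protocols, which name the fat pad. All 10 measured adipocyte markers were above the dim background defined below in at least 1 group. Of 14 hepatocyte markers, 5 were above it, namely Alb, Apoa1, Apoc3, Fgg and Hpd. Ttr, Fga, Fgb, Ahsg, Tat, Serpina1, Cps1, Tdo2 and Apoa2 were below it in every group. The mean level of the hepatocyte list per rat ran from 4.94 to 5.02 in fed rats, from 5.03 to 5.30 in phase 2 and from 5.08 to 5.24 in phase 3. That mean hides opposite changes. Alb was at 8.33 in fed rats, 9.62 in phase 2 and 6.73 in phase 3 (-2.89 between the fasted groups, limma, adjusted p = 0.00234). Hpd changed by 2.33 from fed to phase 3 (limma, adjusted p = 2.62e-07) and Apoc3 by -1.33 in phase 2 (adjusted p = 0.000137). Apoa1 and Fgg were called in no comparison.

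Most P450 genes were not above the dim background in this fat pad. That background was taken, in each group, as the 95th percentile of 53 olfactory receptor genes, which lay at 5.32 in fed rats, 5.66 in phase 2 and 5.76 in phase 3. In fed rats 19 of the 67 members were above it, against 69.7% of all genes tested. In phase 2 there were 16 members above it, against 65.7% of all genes, and in phase 3 there were 14, against 64.2%. Over the groups, 20 members were above it at least in 1 group and 47 in none, with group means of the 47 between 2.82 and 5.25.

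The 14 members above the background in every group were Cyp1b1, Cyp20a1, Cyp26b1, Cyp27a1, Cyp2d1, Cyp2d4, Cyp2j3, Cyp2j4, Cyp2t1, Cyp2u1, Cyp39a1, Cyp4b1, Cyp4f6 and Cyp4v3. Cyp2b1 was above it only in phase 2, and Cyp7b1 in fed rats and phase 2. Cyp26a1, Cyp46a1, Cyp4a3 and Cyp4f5 were above it only in fed rats, close to the limit. Cyp26a1, for example, was at 5.35 ± 0.120 (SD, n = 4) in fed rats and at 5.62 ± 0.121 (SD, n = 4) in phase 2, where the limit was higher.

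**Figure D1:**
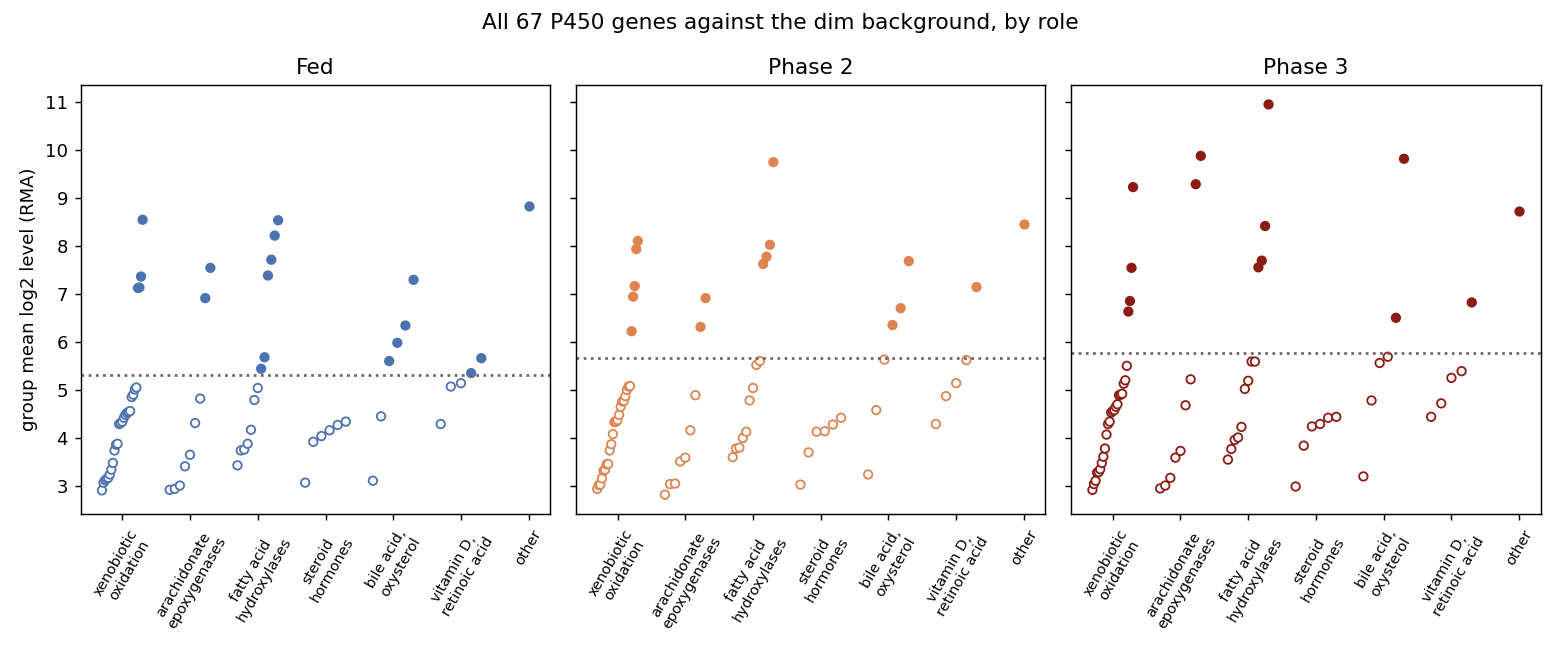
Group mean log2 level (RMA) of each of the 67 P450 genes in fed, phase 2 and phase 3 rats, in columns by the substrate class of the family. Filled points lie above the dotted line, the dim background of that group (5.32, 5.66 and 5.76), and open points below it; none of the 6 steroid hormone genes is filled, against 6 of the 13 fatty acid hydroxylases in at least 1 group.

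Between fed and phase 2, 5 members rose, 7.46% of the 67 against 9.66% of all genes tested. These were Cyp1b1, Cyp26b1, Cyp2b1, Cyp39a1 and Cyp4b1. Another 2 members, Cyp20a1 and Cyp2d4, fell, which is 2.99% against 15.5% of all genes. Both were above the dim background. A gene within that background has little room to fall, and 47 of the 67 members were within it in every group. The shares of falls, here and below, are therefore not a like comparison with all genes. The median change was 0.0267 log2 units over the members and 0.00722 over all genes, and the members ranged from -0.63 to 1.70. With each array centred on its own median, 9 members rose and 2 fell, and the share of rises among all called genes went from 38.4% to 53.0%. Without phase 3 rat 1, 2 or 3, which enter this comparison only through the shared spread, 11, 11 and 13 members were called in place of 7.

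From fed to phase 3, 15 members rose (22.4%, against 21.1% of all genes) and 5 fell (7.46%, against 24.3%). Of the 15, 7 were above the dim background in at least 1 group and 8 in none. The share that rose was near that of all genes. Of the 5 that fell, 4 were above the dim background in at least 1 group. The median change was 0.124 over the members and 0.0527 over all genes, with a range from -1.01 to 2.53. With centred arrays 36 members rose and 3 fell, and 18 of the 20 calls were kept, while the share of rises among all called genes went from 46.5% to 69.6%. Only 20 members were above the dim background in any group, so part of these 36 were within it throughout.

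From phase 2 to phase 3, 9 members rose (13.4%, against 12.8% of all genes) and 4 fell (5.97%, against 15.1%). All 4 that fell were above the dim background in at least 1 group. The median change was 0.0704 over the members and 0.033 over all genes, and the range was -0.79 to 2.96. With centred arrays 19 rose and 3 fell, and among all called genes the share of rises went from 45.8% to 64.9%. These 3 comparisons share samples, so their counts are not independent. Over all of them 23 members were called at least once and 44 never. The share of all genes called at least once was not counted, so these numbers have no comparison.

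**Figure D2:**
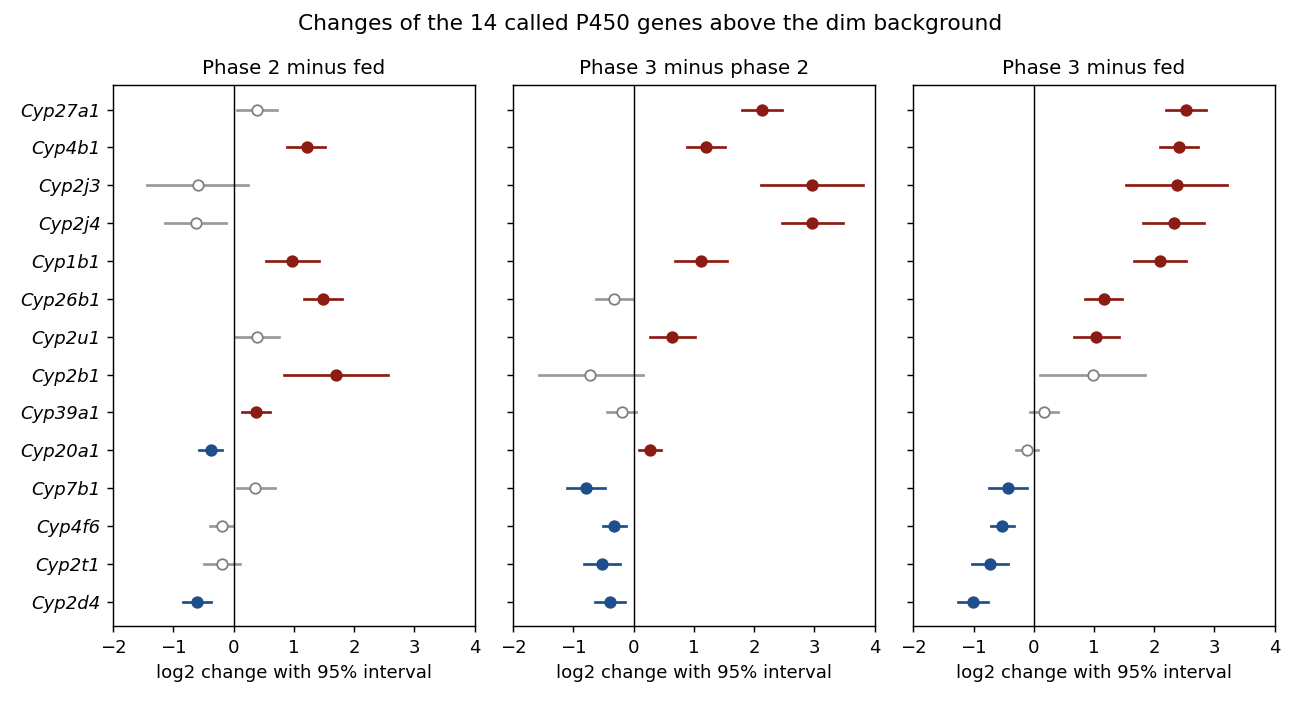
Log2 change with its 95% confidence interval for the 14 P450 genes that were called in at least 1 comparison and lay above the dim background in at least 1 group, in the 3 comparisons. Filled points passed the adjusted p of 0.05 (red higher, blue lower) and open grey points did not; Cyp4b1 and Cyp1b1 are red in all 3 panels, and Cyp2d4 is blue in all 3.

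Among the 13 fatty acid hydroxylases (Cyp4 family and Cyp2u1), 6 were above the dim background, and the one with the largest change was Cyp4b1, which hydroxylates fatty acids and some foreign compounds. It stood at 8.66, 8.27, 8.69 and 8.5 in fed rats 1 to 4. In phase 2 the rats were at 9.63, 9.91, 9.75 and 9.68, and in phase 3 at 11.30, 10.49, 11.03 and 10.95. No rat of a group overlapped with another group. Cyp4b1 rose by 1.21 ± 0.147 (SE) in phase 2, or 2.31-fold (limma, adjusted p = 4.87e-05). It rose by a further 1.20 from phase 2 to phase 3 (2.3-fold, limma, adjusted p = 3.64e-05), and was 5.31-fold higher in phase 3 than in fed rats (limma, adjusted p = 1.39e-08).

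Cyp2u1, a hydroxylase of long-chain fatty acids, was highest in phase 3. Its levels were 7.39, 7.28, 7.49 and 7.35 in fed rats, then 7.82, 7.81, 7.80 and 7.65 in phase 2. In phase 3 they were 8.89, 7.82, 8.69 and 8.24, with rat 2 just above the phase 2 rats. The first difference, 0.39 ± 0.173 (SE), did not pass (limma, adjusted p = 0.123), although no rats overlapped. It passed with only fed and phase 2 rats (limma, adjusted p = 0.00228), with array weights (0.0433) and without phase 3 rat 2 (0.0265). The rise from phase 2 to phase 3 was 0.64 (1.56-fold, limma, adjusted p = 0.0123), and that from fed to phase 3 was 1.03 (2.05-fold, limma, adjusted p = 0.000198).

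Cyp4f6, whose family hydroxylates leukotrienes and fatty acids, went the other way. It fell from 8.21 ± 0.147 (SD, n = 4) in fed rats to 7.69 ± 0.119 in phase 3, by 0.52 (limma, adjusted p = 0.000246), with no overlap. Phase 2 rats were between, at 8.02 ± 0.0623, and differed from phase 3 by 0.32 (limma, adjusted p = 0.0147). That last call was lost with centred arrays (adjusted p = 0.0607). Cyp4v3, Cyp4a3 and Cyp4f5, the others above the background, were called in no comparison, with differences between -0.16 and 0.15. Over the 13 genes, 1 rose and 0 fell in phase 2 against fed (all genes 9.66% and 15.5%). In phase 3 against fed, 2 rose and 1 fell (all genes 21.1% and 24.3%), and from phase 2 to phase 3, 2 rose and 1 fell (all genes 12.8% and 15.1%).

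Cyp2j and Cyp2c enzymes convert arachidonic acid to epoxides, and of the 9 genes of this class only Cyp2j3 and Cyp2j4 were above the dim background. They are neighbours on chromosome 5, with starts 37.5 kb apart, and changed in the same way. Their upstream sequences are shown because they are neighbours that moved together: the 250 bases before the RefSeq start, build GRCr8, minus strand, at chr5:116360500-116360749 for Cyp2j3 and chr5:116323043-116323292 for Cyp2j4. Capitals mark GGGCGG, the GC box, on either strand.
Cyp2j3: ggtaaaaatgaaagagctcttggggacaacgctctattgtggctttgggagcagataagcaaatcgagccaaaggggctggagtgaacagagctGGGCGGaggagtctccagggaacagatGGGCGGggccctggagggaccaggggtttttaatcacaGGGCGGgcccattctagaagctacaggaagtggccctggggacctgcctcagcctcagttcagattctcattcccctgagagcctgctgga
Cyp2j4: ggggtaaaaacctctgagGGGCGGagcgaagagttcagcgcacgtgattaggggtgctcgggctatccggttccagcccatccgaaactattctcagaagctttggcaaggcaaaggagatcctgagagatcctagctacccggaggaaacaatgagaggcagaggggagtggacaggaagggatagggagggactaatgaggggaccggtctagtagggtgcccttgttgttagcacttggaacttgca
In a local alignment that allowed gaps, 104 of the 192 bases aligned outside the gaps were identical (54.2%). The identity of unrelated promoters was not tested. Cyp2j3 held 3 GC boxes and Cyp2j4 held 1, a motif found in 30.5% of 33469 rat promoters.

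Cyp2j3 was at 6.88, 6.91, 6.94 and 6.92 in fed rats and at 6.55, 6.10, 6.52 and 6.08 in phase 2. In phase 3 it was at 7.67, 9.57, 9.47 and 10.40. All phase 3 rats were above all others, and they also differed most among themselves, with an SD of 1.15 against 0.0231 in fed rats. The drop in phase 2, -0.60 (95% interval -1.44 to 0.24), did not pass when all groups shared 1 spread (limma, adjusted p = 0.316). With only fed and phase 2 rats in the fit it did (limma, adjusted p = 0.0021), as it did without phase 3 rat 1 (adjusted p = 0.0252). From phase 2 to phase 3 Cyp2j3 rose 7.81-fold (2.96 ± 0.392 SE, limma, adjusted p = 6.92e-05), and it ended 5.16-fold above fed rats (limma, adjusted p = 0.000179).

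Cyp2j4 followed the same course, with an SD below that of Cyp2j3 in phase 2 (0.212 against 0.257) and phase 3 (0.646 against 1.15) and above it in fed rats (0.119 against 0.0231). Fed rats were at 7.55, 7.53, 7.68 and 7.39, phase 2 rats at 6.61, 7.11, 6.94 and 6.96, and phase 3 rats at 9.22, 10.45, 9.41 and 10.40. The groups did not overlap. The change of -0.63 in phase 2 did not pass (limma, adjusted p = 0.0647), but did with only fed and phase 2 rats (limma, adjusted p = 0.00111) and without any 1 of the phase 3 rats (adjusted p = 0.0282, 0.0343, 0.0462 and 0.0465 for rats 1 to 4). With all 12 arrays kept, that change also passed with array weights (limma, adjusted p = 0.0181) and with the replicate number as a block (0.0473). The same held without the dimmest 40% of genes (adjusted p = 0.0498). From phase 2 to phase 3 the level rose 7.79-fold (2.96 ± 0.235 SE, limma, adjusted p = 1e-06), and phase 3 was 5.02-fold above fed (limma, adjusted p = 1.82e-06).

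**Figure D3:**
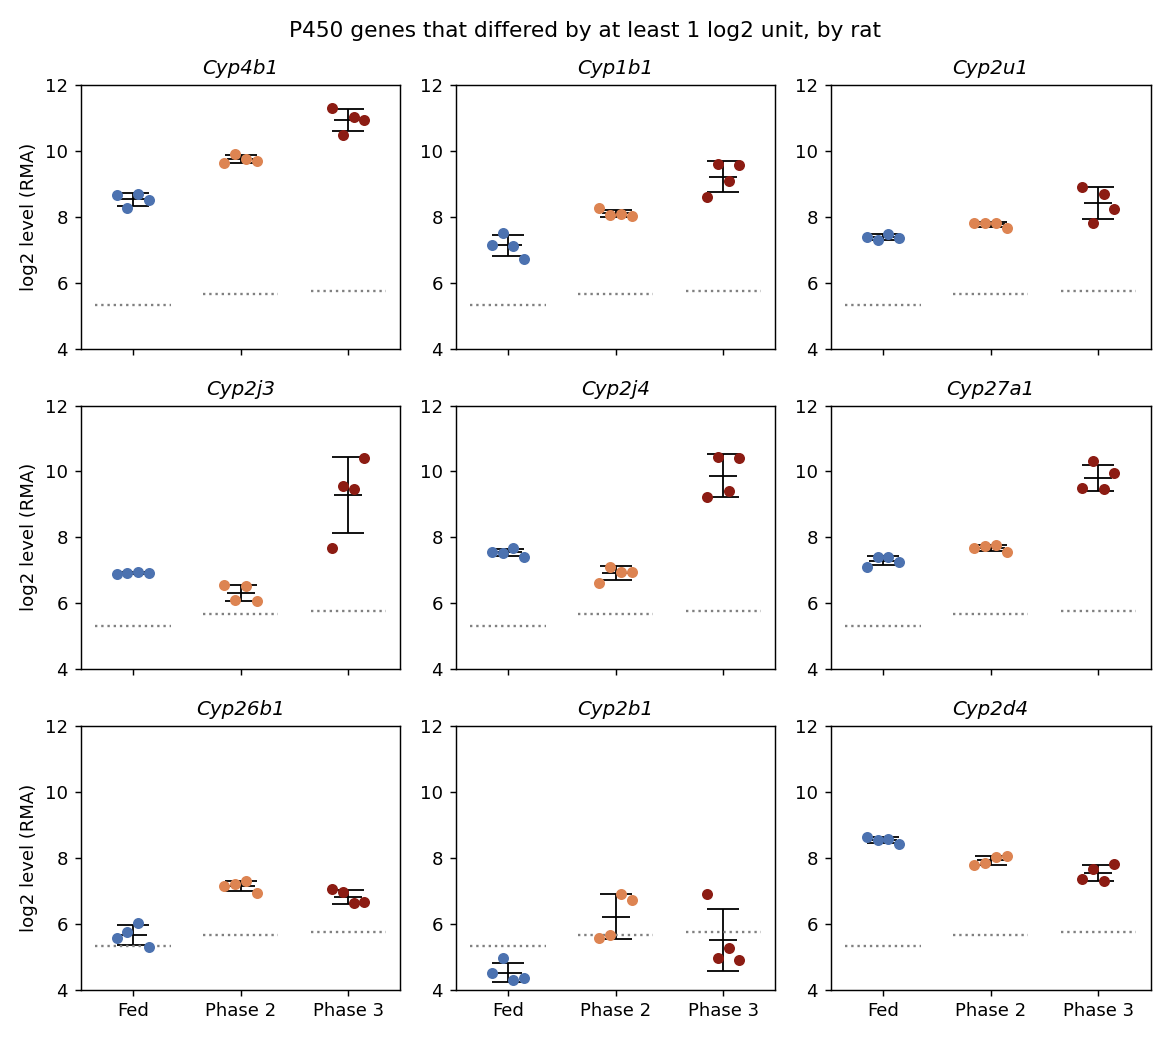
Log2 level (RMA) of each rat for the 9 P450 genes that differed by at least 1 log2 unit between group means, with the group mean and 1 SD as black bars and the dim background of each group as a dotted line. Cyp2j3, Cyp2j4 and Cyp27a1 are highest in phase 3, Cyp4b1 and Cyp1b1 rise in both steps, Cyp26b1 is high in both fasted groups, Cyp2d4 falls, and for Cyp2b1 rat 1 of phase 3, at 6.90, lies apart from the other phase 3 rats.

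Spread within a group differed among the members. The median SD of these 9 genes, which were picked for their large changes, was 0.136 in fed rats, 0.141 in phase 2 and 0.471 in phase 3, although Cyp26b1 varied less in phase 3 (0.206) than in fed rats (0.303). Over all 67 members the medians were 0.125, 0.121 and 0.182, and over all genes 0.112, 0.126 and 0.167. Adipocyte markers also spread out in phase 3. Their mean level was 11.72 to 11.8 in fed rats, 11.50 to 11.66 in phase 2, and 10.58, 9.88, 10.09 and 9.73 in phase 3 rats 1 to 4. In phase 3, 9 of 10 markers were lower than in fed rats, against 24.3% of all genes. Rat 1, with the highest adipocyte markers of the phase 3 rats, had the lowest Cyp2j3, Cyp2j4 and Cyp1b1 of that group and the highest Cyp4b1, Cyp2u1, Cyp2b1 and Cyp26b1. For Cyp27a1 and Cyp2d4 that rat was neither lowest nor highest. A single rat does not show a link between these levels. The part of cell composition in these changes was not tested.

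The 3rd Cyp2j gene, Cyp2j10, stayed below the dim background in every group, but differed by 0.52 between phase 2 and phase 3 (limma, adjusted p = 0.0079). Cyp2c22, Cyp2c23 and Cyp2c6v1 were likewise below it, with differences of 0.32, 0.41 and 0.23 between fed and phase 3 (limma, adjusted p = 0.0116, 0.0424 and 0.036). The call of Cyp2c23 was lost when any of fed rats 1, 3 and 4, phase 2 rats 2 and 4 and phase 3 rats 3 and 4 was left out (adjusted p from 0.0519 to 0.125), and with only the groups compared (0.0596). That of Cyp2c6v1 was lost when fed rats 2 and 3 or phase 3 rats 2 and 3 were left out singly (adjusted p from 0.0649 to 0.105). It was also lost with quantile normalization (0.081), cyclic loess (0.15), array weights (0.0703), only the groups compared (0.0609) and the replicate number as a block (0.0608). Cyp2j10 was also called between fed and phase 3 (0.37, limma, adjusted p = 0.0305), a call lost on omitting any of fed rats 1 to 3 and phase 3 rats 2 to 4 (adjusted p from 0.0553 to 0.0902), with quantile normalization (0.145), cyclic loess (0.106) and only the groups compared (0.0582). As a class, 6 of the 9 epoxygenase genes rose from fed to phase 3 and 0 fell, where 21.1% and 24.3% of all genes did. Of the 6, 4 were below the dim background in every group, and the calls of those 4 were lost under some alternatives, that of Cyp2c22 only with cyclic loess (adjusted p = 0.0502). None of the 9 passed between fed and phase 2 in the main limma fit.

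Of the 6 genes for bile acid, cholesterol and oxysterol hydroxylases, 4 were above the dim background. Cyp27a1, the mitochondrial sterol hydroxylase that makes an oxysterol from cholesterol, was the most changed. Its fed rats were at 7.11, 7.40, 7.39 and 7.24, and its phase 2 rats at 7.67, 7.73, 7.77 and 7.55. Phase 3 rats were at 9.51, 10.31, 9.48 and 9.95. No groups overlapped, but most of the change came in the step from phase 2 to phase 3, with a 4.39-fold rise (2.13 ± 0.154 SE, limma, adjusted p = 4.24e-07). The difference of 0.39 in phase 2 did not pass (limma, adjusted p = 0.0796), but did with centred arrays (limma, adjusted p = 0.0363), and without phase 3 rat 2 (adjusted p = 0.0183) or rat 3 (0.0497). It also passed with only fed and phase 2 rats (limma, adjusted p = 0.00512), quantile normalization (0.0258), cyclic loess (0.0312) and array weights (0.0188). Phase 3 was 5.76-fold above fed (limma, adjusted p = 1.33e-08).

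The upstream sequence of Cyp27a1 is shown because nuclear receptors are known to act on sterol-handling genes: 250 bases before the RefSeq start, GRCr8, plus strand, chr9:83713282-83713531. Capitals mark AGGTCA, the half-site that many nuclear receptors bind, on either strand.
Cyp27a1: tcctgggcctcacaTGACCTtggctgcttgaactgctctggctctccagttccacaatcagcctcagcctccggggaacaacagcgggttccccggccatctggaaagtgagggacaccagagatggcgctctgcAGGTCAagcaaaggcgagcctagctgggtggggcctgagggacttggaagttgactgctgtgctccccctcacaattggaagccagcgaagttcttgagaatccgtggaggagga
It held 2 such matches, beginning 236 and 115 bases before the start. The motif was found in 14.1% of 33469 rat promoters. It was found in 17 of the 53 members with a listed promoter, 2 of them among the 9 with the largest changes (Cyp27a1 and Cyp2u1). A member counted where any of its promoters held the motif, so its count and the share of single promoters are not alike.

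Cyp7b1, which inactivates oxysterols and some steroids by hydroxylation, had its lowest level in phase 3. It was at 6.09, 5.87, 6.00 and 5.97 in fed rats, at 6.43, 6.44, 6.42 and 6.12 in phase 2, and at 5.48, 5.88, 5.09 and 5.79 in phase 3, where its mean was below the dim background. Phase 2 and phase 3 did not overlap, with a measured change of -0.79 ± 0.145 (SE, limma, adjusted p = 0.000967). With the limit in place of the 2 phase 3 rats below it, phase 3 was at least 1.47-fold lower. The difference between fed and phase 3, -0.42 (limma, adjusted p = 0.0274), was lost with centred arrays (adjusted p = 0.102), quantile normalization (0.0725) and cyclic loess (0.0509), and without any of 5 single rats, fed rats 1, 3 and 4 and phase 3 rats 1 and 3 (adjusted p from 0.0511 to 0.0706).

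Cyp39a1, an oxysterol hydroxylase, rose by 0.37 ± 0.111 (SE) in phase 2, from 6.34 ± 0.175 (SD, n = 4) to 6.70 ± 0.113 (limma, adjusted p = 0.025). The call was lost without fed rat 2 (adjusted p = 0.079), phase 2 rat 3 (0.0699) or phase 2 rat 4 (0.0659). Cyp46a1, the cholesterol hydroxylase known from neurons, was called in no comparison. Cyp7a1 and Cyp8b1, the liver's bile acid enzymes, were below the dim background in every group. Cyp8b1 differed by 0.33 between fed and phase 3, which just passed (limma, adjusted p = 0.0497). That call was lost on omitting any of fed rats 1, 3 and 4, phase 2 rats 1 to 3 and phase 3 rats 3 and 4 (adjusted p from 0.052 to 0.142). It was also lost with quantile normalization (0.107), cyclic loess (0.0731), another variance prior (0.0511), the replicate number as a block (0.0539) and only the groups compared (0.065).

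Retinoic acid is cleared by the Cyp26 enzymes, and Cyp26b1 rose early. It was at 5.58, 5.76, 6.01 and 5.30 in fed rats, at 7.15, 7.20, 7.29 and 6.94 in phase 2, and at 7.04, 6.96, 6.64 and 6.65 in phase 3. All fasted rats were above all fed rats, while the 2 fasted groups overlapped. The rise in phase 2 was 1.48 ± 0.144 (SE), or 2.79-fold (limma, adjusted p = 6.49e-06), and phase 3 was 2.24-fold above fed (limma, adjusted p = 1.25e-05). The difference of phase 3 from phase 2, -0.32 (95% interval -0.63 to -0.01), did not pass (limma, adjusted p = 0.116). Cyp26a1 was called in no comparison. Among the vitamin D genes, Cyp2r1, which begins the activation of vitamin D, stayed below the dim background and was 0.42 lower in phase 3 than in fed rats by the main scaling (-0.42, limma, adjusted p = 0.0121), a call lost with centred arrays (-0.26, adjusted p = 0.0789). Cyp27b1 and Cyp24a1 were below the background in every group.

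Of the 27 genes of families known for foreign compounds, 5 were above the dim background in at least 1 group: Cyp1b1, Cyp2b1, Cyp2d1, Cyp2d4 and Cyp2t1. Cyp1b1 oxidises polycyclic hydrocarbons and oestradiol and is a known target of the aryl hydrocarbon receptor (AHR). It stood at 7.15, 7.52, 7.11 and 6.72 in fed rats, at 8.26, 8.06, 8.08 and 8.01 in phase 2, and at 8.61, 9.61, 9.07 and 9.57 in phase 3. No groups overlapped. It rose 1.96-fold in phase 2 (0.97 ± 0.201 SE, limma, adjusted p = 0.00261) and 2.17-fold again to phase 3 (1.12, limma, adjusted p = 0.000839), to 4.26-fold above fed (limma, adjusted p = 1.15e-06).

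Its upstream sequence is shown for the AHR core motif GCGTG: 250 bases before the RefSeq start, GRCr8, plus strand, chr6:21094315-21094564. Capitals mark GCGTG and the GC box GGGCGG on either strand.
Cyp1b1: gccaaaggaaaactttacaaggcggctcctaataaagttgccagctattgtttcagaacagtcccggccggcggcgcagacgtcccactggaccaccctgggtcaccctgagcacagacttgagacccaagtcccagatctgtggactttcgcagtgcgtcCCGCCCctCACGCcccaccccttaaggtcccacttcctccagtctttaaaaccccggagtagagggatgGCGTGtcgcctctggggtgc
There were 2 matches to GCGTG, beginning 81 and 20 bases before the start, and 1 GC box. GCGTG was found in 25.9% of 33469 rat promoters. Counting a member where any of its promoters held it, which is not a like measure, it was in 15 of 53 members. Of these, 4 were among the 9 with the largest changes (Cyp1b1, Cyp26b1, Cyp2b1 and Cyp2u1). Cyp1a1, the classical AHR target, was below the dim background in every group, at 3.74, 4.08 and 4.34, with a difference of 0.61 between fed and phase 3 (limma, adjusted p = 0.000921). Ahr itself was at 6.43 ± 0.0517 (SD, n = 4) in fed rats, 6.66 ± 0.209 in phase 2 and 6.23 ± 0.225 in phase 3, and passed only between phase 2 and phase 3 (-0.42, limma, adjusted p = 0.0156).

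Cyp2b1, known as the rat liver P450 induced by phenobarbital, rose in phase 2. Fed rats were at 4.52, 4.95, 4.29 and 4.34, below the dim background. Phase 2 rats were at 5.58, 5.66, 6.91 and 6.72, and phase 3 rats at 6.90, 4.95, 5.25 and 4.91. With the fed limit of 5.32 in place of the fed values, phase 2 was 1.86-fold higher (the measured difference was 1.70 ± 0.403, SE, limma, adjusted p = 0.00651). This is not a strict lower bound, since phase 2 rats 1 and 2 were themselves at about the phase 2 limit of 5.66. Only phase 2 rats 3 and 4 lay well above it. Phase 3 overlapped with both other groups, and its differences from fed (0.98, limma, adjusted p = 0.0617) and from phase 2 (-0.72, adjusted p = 0.214) did not pass. Without phase 3 rat 1, which stood apart, phase 3 was lower than phase 2 (-1.18, limma, adjusted p = 0.00847). Leaving out that rat also lowered the difference of phase 3 from fed to 0.51 (adjusted p = 0.172), between levels that are both within the background. That difference passed without phase 3 rat 2 (1.16, adjusted p = 0.0388) or rat 4 (1.18, adjusted p = 0.0426), and with centred arrays (1.13, adjusted p = 0.027).

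Cyp2b2 lies 76.2 kb from Cyp2b1, and the pair are shown because their sequences are nearly alike: 250 bases before each RefSeq start, GRCr8 plus strand, chr1:90645869-90646118 and chr1:90722031-90722280. Capitals mark the AHR core GCGTG, the GC box and TGTTTAC, which is a core motif of FOXO factors, each on either strand.
Cyp2b1: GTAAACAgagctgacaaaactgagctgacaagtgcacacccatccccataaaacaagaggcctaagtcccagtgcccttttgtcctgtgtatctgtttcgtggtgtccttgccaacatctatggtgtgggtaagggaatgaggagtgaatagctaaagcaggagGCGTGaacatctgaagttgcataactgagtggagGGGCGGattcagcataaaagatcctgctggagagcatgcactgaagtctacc
Cyp2b2: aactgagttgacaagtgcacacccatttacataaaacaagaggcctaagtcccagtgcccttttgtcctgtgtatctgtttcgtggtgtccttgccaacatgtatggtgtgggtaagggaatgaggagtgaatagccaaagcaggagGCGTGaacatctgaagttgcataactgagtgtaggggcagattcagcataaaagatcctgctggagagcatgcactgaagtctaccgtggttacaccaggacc
In a local alignment that allowed gaps, 225 of the 233 bases aligned outside the gaps were identical (96.6%). The AHR core was in both, beginning 86 bases before the start in Cyp2b1 and 103 in Cyp2b2. The GC box was only in the window of Cyp2b1. The FOXO core of Cyp2b1 lies at the far edge of its window, 250 bases before the start. The matching stretch of Cyp2b2 falls outside the window shown, so the 2 genes cannot be compared for that motif. TGTTTAC was found in 3.21% of 33469 rat promoters. Counting a member where any of its promoters held it, which is not a like measure, it was in 5 of 53 members. Cyp2b2 stayed below the dim background, at 4.73, 4.76, 5.53 and 5.32 in phase 2 against 4.22, 4.57, 4.54 and 4.02 in fed rats, and its difference of 0.75 did not pass (limma, adjusted p = 0.0522). As for Cyp2b1, phase 2 rats 3 and 4 and phase 3 rat 1 (5.63) were the highest of their groups. How far the probes of such near-identical genes read each other's RNA was not tested.

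Cyp2d4, the Cyp2d gene known from rat brain, was lower in each later group. It was at 8.63, 8.55, 8.57 and 8.42 in fed rats, at 7.77, 7.85, 8.03 and 8.07 in phase 2, and at 7.37, 7.66, 7.31 and 7.81 in phase 3. All fasted rats were below all fed rats, and the fasted groups overlapped. Phase 2 was 1.53-fold lower than fed (-0.61 ± 0.113 SE, limma, adjusted p = 0.00117) and phase 3 was 2.01-fold lower (-1.01, limma, adjusted p = 4.91e-06). The step between the fasted groups, -0.39 (limma, adjusted p = 0.0174), was lost without phase 2 rat 3 (adjusted p = 0.0513) or rat 4 (0.0555). Cyp2t1 fell by 0.53 from phase 2 to phase 3 (limma, adjusted p = 0.0109), from 7.16 ± 0.127 (SD, n = 4) to 6.63 ± 0.358, and was 0.73 lower than in fed rats (change -0.73, limma, adjusted p = 0.00063). Cyp2d1 was called in no comparison. Of the 22 other genes of the class, Cyp2b3 also passed without rising above the background, by 0.41 from fed to phase 3 (limma, adjusted p = 0.00306).

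All 6 genes of steroid hormone synthesis were below the dim background in every group. Cyp17a1, an enzyme of androgen synthesis, differed by 0.38 between fed and phase 3 within that range (limma, adjusted p = 0.0244), and was not called without fed rat 3 (adjusted p = 0.0602), fed rat 4 (0.0717) or phase 3 rat 2 (0.0717), nor with quantile normalization (0.111) or cyclic loess (0.0945). Markers of Leydig and adrenal cells had a mean level of 6.03 to 6.15 in fed rats, 6.09 to 6.15 in phase 2 and 6.04 to 6.21 in phase 3. Only 4 of the 8 were above the dim background in any group. In phase 2 against fed, Mc2r rose (1.25, limma, adjusted p = 7.91e-06) and Star fell (-0.88, adjusted p = 0.0433). These were 1 of 8 each way (all genes 9.66% and 15.5%). From phase 2 to phase 3, Mc2r changed by -1.31 (limma, adjusted p = 4.02e-06) and Fdx1 by 0.31 (0.0307). Cyp20a1, whose substrate is not settled, was lower in phase 2 than in both other groups: 8.83 ± 0.106 (SD, n = 4), 8.45 ± 0.107 and 8.72 ± 0.0983 in fed, phase 2 and phase 3. The fall was -0.38 (limma, adjusted p = 0.00398) and the return 0.27 (limma, adjusted p = 0.0274), the latter lost without phase 2 rat 1 (adjusted p = 0.0735), phase 2 rat 2 (0.077), phase 3 rat 2 (0.0552) or phase 3 rat 4 (0.0856), and with only the fasted groups in the fit (0.0527).

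Whether a gene moved alike in both steps of the fast was tested directly, as the change from phase 2 to phase 3 minus that from fed to phase 2, a contrast added after the values were seen. It was higher in 4 members, against 6.87% of all genes, and lower in 3, against 5.71%. The contrast was higher for Cyp2j4 (3.59 ± 0.407 SE, limma, adjusted p = 9.95e-05), Cyp2j3 (3.56, adjusted p = 0.00372), Cyp27a1 (1.74, adjusted p = 0.000889) and Cyp20a1 (0.66, adjusted p = 0.00958). Of these, Cyp2j4 (-0.63), Cyp2j3 (-0.60) and Cyp20a1 (-0.38) had a negative first step, called only for Cyp20a1, and then rose. Cyp26b1 (-1.80 ± 0.249 SE, limma, adjusted p = 0.000432), Cyp7b1 (-1.15, adjusted p = 0.0082) and Cyp2b1 (-2.42, adjusted p = 0.0364) moved the other way, with Cyp2b1 within the background in fed rats and phase 3. The call of Cyp2b1 was lost on omitting any of fed rats 1, 3 and 4, phase 2 rats 3 and 4 and phase 3 rats 2 to 4 (adjusted p from 0.0537 to 0.125). It was also lost with another variance prior (limma, adjusted p = 0.0713) and with the replicate number as a block (0.0614). For Cyp4b1 and Cyp1b1 the difference between the steps did not pass, with 95% intervals of the difference from -0.55 to 0.54 and from -0.61 to 0.89 (limma, adjusted p = 0.995 and 0.87).

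Other cell types moved in the same samples. For the counts that follow, 9.66% of all genes rose and 15.5% fell in phase 2 against fed. In phase 3 against fed, 21.1% rose and 24.3% fell. Smooth muscle markers had a mean level of 8.09 to 8.70 in fed rats, 9.12 to 9.97 in phase 2 and 9.05 to 9.68 in phase 3, and 9 of 9 rose in phase 2. Endothelial markers ran from 9.26 to 9.38, from 9.61 to 9.88 and from 9.54 to 9.71, and 7 of 10 rose in phase 2. Fibroblast and progenitor markers fell, from 10.93 to 11.11 in fed rats to 8.92 to 9.57 in phase 3, where 10 of 12 were lower and 1 higher. Mesothelial markers went from 8.24 to 8.51 down to 7.07 to 7.53, with 5 of 7 lower in phase 3 than in fed rats. Macrophage markers showed no common direction, with 4 of 14 higher and 4 lower in phase 3 than in fed rats. T and NK cell markers ran from 5.73 to 5.95 in fed rats and from 5.50 to 5.77 in phase 3, with 4 of 10 lower, and epididymis and testis markers from 4.22 to 4.37 and from 4.38 to 4.65, with 3 of 13 higher. The part of these cells in the P450 changes was not tested.

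Microsomal P450 enzymes take their electrons from Por, the P450 reductase, or from cytochrome b5. The change of Por between fed and phase 2 did not pass (-0.04, limma, adjusted p = 0.875), and it rose to phase 3 (0.44 from phase 2, adjusted p = 0.0375). Its phase 3 rats were at 9.99, 9.37, 10.13 and 10.14, and rat 2 lay within the range of the fed rats, 9.32 to 9.65. Of the 12 measured electron donors and membrane partners, 1 rose and 6 fell from fed to phase 3 (all genes 21.1% and 24.3%), with a median of -0.30. The falls with the smallest adjusted p were those of Cyb5r3, a cytochrome b5 reductase (-1.52, limma, adjusted p = 3.27e-07), Nenf (-0.86, adjusted p = 1.18e-06), Cyb5r1 (-0.84, adjusted p = 1.26e-06) and Cyb5b, an outer mitochondrial membrane cytochrome b5 (-0.82, adjusted p = 1.08e-05). In phase 2 against fed, 0 rose and 4 fell (all genes 9.66% and 15.5%). Between the fasted groups, 2 rose and 5 fell (all genes 12.8% and 15.1%).

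P450 enzymes need haem. Of 12 measured genes of haem synthesis and breakdown, 0 rose and 7 fell in phase 2 against fed (all genes 9.66% and 15.5%), with a median of -0.42. In phase 3 against fed, 1 rose and 10 fell (all genes 21.1% and 24.3%), with a median of -0.92. Alad, an enzyme of haem synthesis, changed by -1.63 from fed to phase 3 (limma, adjusted p = 1.52e-07). Uros, another, was within the dim background in phase 3 and so at least 2.2-fold lower there than in fed rats (measured -1.60, limma, adjusted p = 1.96e-06). Blvra and Blvrb, biliverdin reductases, changed by -2.0 and -1.0 (adjusted p = 2.28e-08 and 3.15e-06). The gene that rose was Hmox1, the inducible haem oxygenase, named after its values were seen, by 1.04 (limma, adjusted p = 0.00907). From phase 2 to phase 3, 1 rose and 7 fell (all genes 12.8% and 15.1%). Over all genes the medians were 0.00722 and 0.0527. Erythroid markers moved in the same samples. Their mean level was 9.59 to 9.78 in fed rats, 10.28 to 10.55 in phase 2 and 9.41, 9.51, 8.14 and 9.44 in phase 3 rats 1 to 4, with 2 of 5 higher in phase 2 than in fed rats and 5 of 5 lower in phase 3 than in phase 2. Alas2, the erythroid form of the first enzyme of haem synthesis, stands in both lists and changed by -2.15 between the fasted groups (limma, adjusted p = 0.000234). The part of erythroid cells in the haem list was not tested.

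The list of nuclear receptors and AHR factors had 25 measured genes and no common direction. In phase 2 against fed, 7 rose and 2 fell (all genes 9.66% and 15.5%). In phase 3 against fed, 9 rose and 4 fell (all genes 21.1% and 24.3%), and between the fasted groups 6 rose and 7 fell (all genes 12.8% and 15.1%). Vdr, the vitamin D receptor, was above the dim background only in phase 3, where rat 3, at 5.76, was at about the limit. With the fed limit in place of the fed values, phase 3 was 1.79-fold higher than fed (measured 1.44, limma, adjusted p = 2.49e-07). Nfe2l2, a factor of the oxidative stress response, rose by 0.79 (adjusted p = 7.05e-07). Rara, a retinoic acid receptor, and Pparg, the adipocyte receptor, were lower by -0.74 and -0.80 (limma, adjusted p = 6.9e-06 and 7.48e-05).

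Among 21 eicosanoid enzymes outside the P450 family, 1 rose and 5 fell in phase 2 (all genes 9.66% and 15.5%). In phase 3 against fed, 2 rose and 12 fell (all genes 21.1% and 24.3%), and between the fasted groups 1 rose and 10 fell (all genes 12.8% and 15.1%). Alox5 (-1.81), Ltc4s (-1.94) and Ptges (-1.50), which make leukotrienes and prostaglandin E, were lower in phase 3 than in fed rats (limma, adjusted p = 7.45e-09, 9.55e-06 and 1.95e-06). Ephx1, the microsomal epoxide hydrolase, rose by 1.08 in phase 2 (limma, adjusted p = 7.23e-06) and remained 0.73 above fed in phase 3 (adjusted p = 5.33e-05). Ephx2, the soluble hydrolase of the fatty acid epoxides that Cyp2j enzymes make, varied too much to be called. It was at 7.92, 5.94, 8.07 and 5.82 in fed rats, 8.29, 8.85, 6.79 and 6.41 in phase 2, and 6.30, 5.11, 5.89 and 6.64 in phase 3. The groups overlapped, and its change from phase 2 to phase 3 was -1.60 ± 0.601 (SE, limma, adjusted p = 0.0629).

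Partners of the steroid, oxysterol and bile acid P450s were split. Of 25 measured, 1 rose and 7 fell in phase 2 (all genes 9.66% and 15.5%). In phase 3 against fed, 7 rose and 6 fell (all genes 21.1% and 24.3%). Between the fasted groups 5 rose and 2 fell (all genes 12.8% and 15.1%), and with centred arrays 9 rose and 2 fell. Hsd17b11, a dehydrogenase of the lipid droplet, rose by 1.24 from fed to phase 3 (limma, adjusted p = 4.36e-08). Tspo, a mitochondrial membrane protein, Hsd17b7 and Srd5a3 were lower by -1.58, -0.89 and -0.87 (limma, adjusted p = 7.22e-07, 2.72e-07 and 4.02e-07). Hsd11b1, which regenerates active glucocorticoid, rose from 9.11 ± 0.211 (SD, n = 4) in phase 2 to 10.27 ± 0.300 in phase 3 (1.16, limma, adjusted p = 6.4e-05), and its phase 3 rats were above all others.

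**Figure D4:**
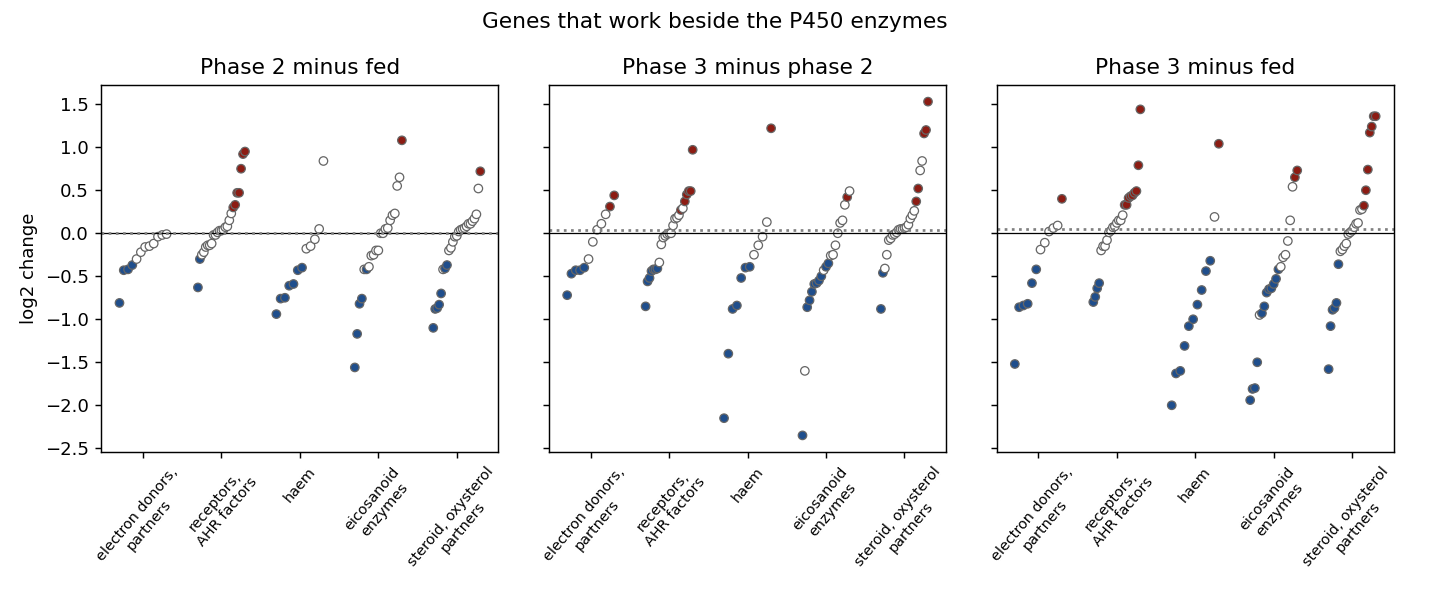
Log2 change of every measured gene of 5 lists of genes that work beside the P450 enzymes, in the 3 comparisons; filled points passed the adjusted p of 0.05 (red higher, blue lower), open points did not, and the dotted line is the median of all genes tested. Most filled haem and eicosanoid points lie below 0, 10 of 11 and 12 of 14 in phase 3 minus fed, whereas the receptor and steroid lists hold filled points on both sides.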

How the data were processed

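Total RNA of 12 fat pads was measured on Affymetrix Rat Gene 1.0 ST arrays. Per the submitters' processing notes, which name RMA, GCOS and Affymetrix Expression Console 1.1, the deposited values are RMA log2 levels of probe sets. Of 29215 probe sets, 15310 had 1 gene in the platform annotation, 323 several and 13582 none, and the brightest probe set stood for each of 14506 genes. No batch was tested, since scan dates were not used here.

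All arrays entered 1 limma 3.58.1 model (R 4.3.3) with a mean per group, lmFit and eBayes, and Benjamini-Hochberg adjustment. The steps were tested on simulated data. Members, gene lists and tests were chosen with earlier results of these data known. Every member could be named, with the values of every rat for called members above the background that differed by at least 1 log2 unit, and of each list up to 4 genes with the smallest adjusted p, plus Por, Ahr, Ephx2 and Hsd11b1. Motifs and promoters (RefSeq, GRCr8, 53 members matched) were chosen after the values were seen. Plots were drawn in matplotlib 3.10.9 under Python 3.11.15. Alternatives were other normalizations, priors, filters, fits and sample sets.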

Additional observations from a re-analysis of the deposited data

Results flagged for a closer look

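For the 14 called P450 genes above the background, each group of 4 rats was checked for a rat far from the other 3, by the gap to its neighbour over the group's range. Of 42 checks 3 passed, and chance gives about 1 in 20. For Cyp2b1, phase 3 rat 1 was at 6.90 and the others between 4.91 and 5.25. For Cyp2u1, phase 2 rat 4 was at 7.65 and the others between 7.80 and 7.82. For Cyp7b1, phase 2 rat 4 was at 6.12 and the others between 6.42 and 6.44.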

How the results depend on the processing

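The count of P450 genes called in phase 2 against fed was 7, but 11 with centred arrays, 15 with array weights and 15 with only the 2 groups compared. Leaving out each rat gave 6 to 13, with 11 without phase 3 rat 1, 11 without phase 3 rat 2 and 13 without phase 3 rat 3. In phase 3 against fed it was 20, but 39 with centred arrays and 10 without the dimmest 40% of genes, which left 14 members to test, and 14 to 22 without single rats. In phase 3 against phase 2 it was 13, but 22 with centred arrays, and 12 to 15 without single rats. In phase 3 against phase 2 the steroid partners called went from 7 to 11 with centred arrays. The difference between the steps of Cyp4b1 had no settled sign: it was 0.02 with centred arrays, 0.01 with array weights and -0.12 to 0.15 without single rats. Counting each named P450 change in the 3 comparisons under each alternative, 882 values kept their direction and side of the threshold, 65 lost a call, 24 gained one and 0 reversed. The number of members above the dim background, 20, was 16 with the 99th percentile, 21 with the 90th, 30 with the dimmest 25% of genes as reference and 18 to 20 without single rats.

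The replicate numbers did not pair the rats: same-numbered rats correlated between -0.155 and 0.188 in their deviations, and were best matched in 5 of 24 cases. With the number as a replicate block the counts of calls were 9, 20 and 13 in the 3 comparisons, with 18 of the 20 kept. Levels near the dim background limit what can be said of the 47 dim members. Where a value moved, the cause was not tested.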
